A study of Mus musculus with 18 samples.

Results

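The AP-1 and BATF transcription factors described here are 9 genes chosen by symbol: Fos, Fosb, Fosl2, Jun, Junb, Jund, Batf, Batf3 and Atf3. They are 9 of the 23337 genes in the count table. A count was found in at least 1 library for 8 of them, out of 15582 genes with a count, and 7 passed the filter on low counts, out of 11118 genes tested. RNA-seq measured their mRNA in sorted invariant natural killer T (iNKT) cells, which use their T cell receptor (TCR) to see lipids held by CD1d.

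The study compared NKT1, NKT2 and NKT17 cells of the thymus between WT and SKG mice, with 3 libraries in each of 6 groups. Both genotypes had the BALB/c background and came from a cross of SKG with BALB/cJ mice, bred on as separate WT and SKG lines, so line and genotype cannot be told apart. SKG mice carry a spontaneous point mutation in the SH2 domain of Zap70, the kinase that relays the TCR signal, in all of their cells and not only in iNKT cells. No agent was given to the cells, and the age of the mice is not given in the sources used here. Cells that bound the CD1d tetramer were sorted as NKT1 where ICOS was low and CD49a was present. NKT2 cells were sorted by high ICOS, CD4 and TCRβ without CD49 or Sdc-1. NKT17 cells were sorted by high ICOS with Sdc-1 present and CD49 absent. The labels do not say whether the 3 libraries of a group came from separate animals, so the p-values measure only the spread between these libraries.

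AP-1 is a family of dimers of basic leucine zipper (bZIP) proteins. JUN proteins pair with each other or with FOS proteins, and the dimers bind the DNA element TGACTCA. In T cells the TCR, through MAP kinases, switches on FOS and JUN within minutes, which makes their genes classic immediate-early genes, and cell handling can switch on the same genes. BATF proteins lack a transactivation domain of their own, pair with JUN proteins and bind composite elements with IRF4 or IRF8, and BATF is needed for the TH17 programme of helper T cells.

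Total counts ran from 4391029 to 8895917 per library. Values below are CPM, counts scaled to a common library size by TMM, and a gene was called where the Benjamini-Hochberg adjusted p of edgeR's quasi-likelihood test was under 0.1 with a fold change of at least 1.5. The NKT1 and NKT17 marker sums were highest in the subsets they name. The 6 NKT1 markers summed to 3970 to 5300 CPM in NKT1 libraries and to at most 422 CPM elsewhere, and 6 NKT17 markers summed to 1960 to 2220 CPM in NKT17 libraries and to at most 14.3 CPM elsewhere. The 6 NKT2 markers summed to 1690 to 2560 CPM in NKT2 libraries, but also to 1520 to 1820 CPM in NKT17 libraries, so that they do not separate these subsets in SKG. Zap70 itself was read at 397 to 789 CPM on average, which does not test the genotype, since a point mutation need not change the level of mRNA and the allele was not read here. The sample titles carry a token of unstated meaning, 7_5, 7_10 and 7_11 for WT replicates 1, 2 and 3, and 7_10, 7_11 and 7_21 for SKG replicates 1, 2 and 3. Values per library are given in that order throughout.

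The sequences just upstream of Fos, Fosb, Jun, Junb and Batf are shown because the transcripts of the first 4 of these genes varied together between libraries of a group while Batf did not. The 150 bases before each RefSeq start site on build GRCm38.p6 are chr12:85473740-85473889 (plus strand), chr7:19310046-19310195 (minus), chr4:95052223-95052372 (minus), chr8:84978749-84978898 (minus) and chr12:85686570-85686719 (plus). They are written 5′ to 3′ on the gene's strand, and capitals mark TGACG, the core of the cyclic AMP response element (CRE), or TGACATCA, a variant of the AP-1 element.
Fos: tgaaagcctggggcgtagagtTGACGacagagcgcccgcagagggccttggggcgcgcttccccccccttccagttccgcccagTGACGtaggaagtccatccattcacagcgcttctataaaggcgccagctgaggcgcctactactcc
Fosb: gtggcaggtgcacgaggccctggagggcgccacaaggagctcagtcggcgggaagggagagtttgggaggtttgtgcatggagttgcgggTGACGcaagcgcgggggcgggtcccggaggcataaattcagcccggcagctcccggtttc
Jun: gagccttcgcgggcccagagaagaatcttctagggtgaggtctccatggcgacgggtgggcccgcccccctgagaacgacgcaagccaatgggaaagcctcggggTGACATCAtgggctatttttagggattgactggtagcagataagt
Junb: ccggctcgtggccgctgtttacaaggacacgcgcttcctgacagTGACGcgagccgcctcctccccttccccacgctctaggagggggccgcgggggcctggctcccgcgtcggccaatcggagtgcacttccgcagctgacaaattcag
Batf: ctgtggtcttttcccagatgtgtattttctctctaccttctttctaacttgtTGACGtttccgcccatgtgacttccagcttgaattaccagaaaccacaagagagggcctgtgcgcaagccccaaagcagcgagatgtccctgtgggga
Of the 9 genes, 5 held TGACG on either strand between 250 bases before and 50 bases after the start, against 20.9% of 32544 RefSeq windows of that length. In Fos it stood at -129 to -125 and at -66 to -62 from the start, in Fosb at -60 to -56, in Junb at -106 to -102 and in Batf at -98 to -94. Atf3 held it on the other strand at -7 to -3. TGACATCA was found in Jun, at -45 to -38, and in 3.37% of windows. The AP-1 element TGACTCA, the whole CRE TGACGTCA (which contains TGACG) and the CArG box were in 0 of the 9 windows, against 5.19%, 1.8% and 1.64% of windows. Sequence outside these windows was not searched, so such elements may lie further upstream. TGACG and TGACATCA were added to the search after the windows had been read, and a match is a description of the letters and not of a bound site.

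Junb was the most abundant member in all 6 groups on a scale that allows genes to be compared, mean CPM per kilobase of exon. It stood at 392 in WT NKT2, 708 in SKG NKT2 and between 797 and 885 in the other 4 groups. Fos came second everywhere, from 66.3 CPM per kilobase in WT NKT2 to 476 in SKG NKT17. Jun, Batf and Jund filled ranks 3 to 5, and Fosb and Fosl2 ranks 6 and 7, at 0.786 to 17.0 CPM per kilobase. Atf3 did not exceed 1.15 CPM per kilobase and Batf3 was not read. The order was the same when length was taken from the longest transcript. Summed over the 9 genes, mean CPM was lowest in WT NKT2, at 1080 ± 396 (SD, n = 3), and highest in SKG NKT17, at 3480 ± 862 (SD, n = 3), and Fos made up 10.5% to 31.8% of that sum.

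**Figure D1:**
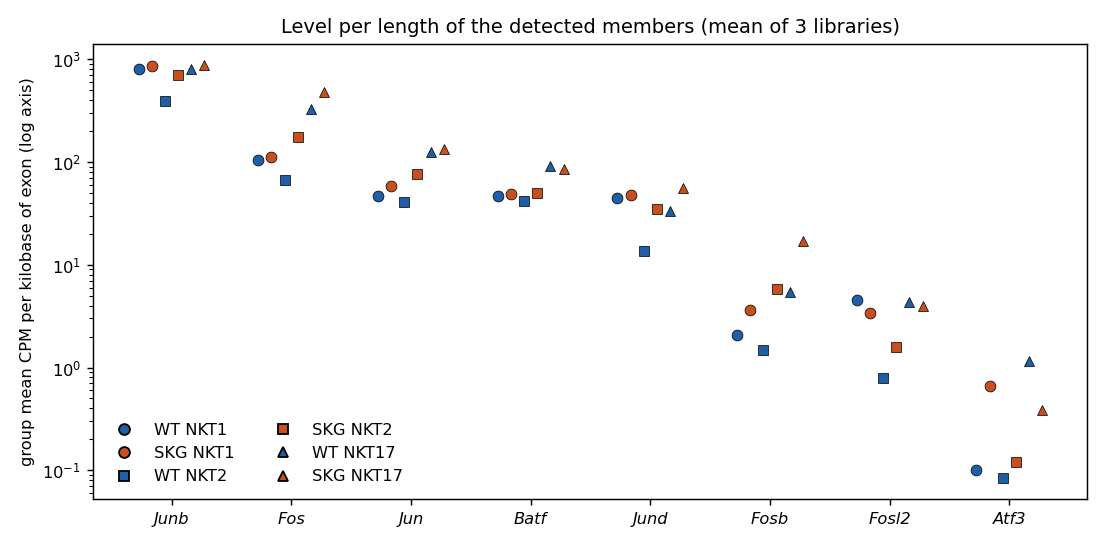
Mean of 3 libraries for the 8 members with a count, in CPM per kilobase of exon on a log axis, with WT in blue, SKG in orange and circles, squares and triangles for NKT1, NKT2 and NKT17. Junb is highest in every group (392 to 885) and Fos second (66.3 to 476).

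Fos encodes the founding FOS protein, which needs a JUN partner to bind DNA (chr12:86814840-86818223, plus strand, NCBIM37). In NKT17 cells it was read at 937, 254 and 1100 CPM in WT and at 754, 1530 and 1090 CPM in SKG. In NKT2 cells the values were 191, 82 and 194 CPM in WT and 276, 664 and 299 CPM in SKG. In NKT1 cells they were 285, 86.9 and 359 CPM in WT and 96.4, 525 and 162 CPM in SKG. Thus Fos was highest in NKT17 cells of both genotypes, all SKG NKT2 libraries lay above all WT NKT2 libraries, and the WT library of token 7_10 was the lowest of its group in all 3 subsets. The order of mean CPM ran from SKG NKT17 through WT NKT17, SKG NKT2, SKG NKT1 and WT NKT1 to WT NKT2, a 7.18-fold span in which all 5 neighbouring pairs of groups overlapped.

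Fosb, a FOS paralogue induced with Fos by the same stimuli (chr7:19888070-19895394, minus strand), was read at lower CPM. In NKT17 cells it stood at 10.5, 8 and 43.4 CPM in WT and 39.2, 105 and 46.7 CPM in SKG. In NKT2 cells it stood at 4.91, 3.5 and 8.41 CPM in WT and 18.5, 31.1 and 16.2 CPM in SKG. In NKT1 cells it stood at 10, 2.67 and 10.6 CPM in WT and 3.9, 26.2 and 10.7 CPM in SKG. As with Fos, no SKG NKT2 library fell among the WT NKT2 libraries, while in NKT1 and NKT17 the genotypes overlapped. From SKG NKT17 to WT NKT2 the group means spanned 11.4-fold, and of the 5 neighbouring pairs in the order only SKG NKT17 and SKG NKT2 did not overlap.

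Fosl2, which encodes FRA-2, a FOS family protein without the transactivation domain of FOS (chr5:32438845-32460204, plus strand), followed another pattern, with NKT2 cells low and NKT1 as high as NKT17. The NKT2 values were 7.97, 2.1 and 3.72 CPM in WT and 9.03, 7.44 and 11.2 CPM in SKG. In NKT1 cells they were 35.7, 22.9 and 20.9 CPM in WT and 18.4, 24.6 and 17 CPM in SKG. In NKT17 cells they were 33, 8.87 and 33.8 CPM in WT and 17.8, 31.1 and 21.2 CPM in SKG. All NKT2 libraries therefore lay below all libraries of the other subsets in the same genotype. The lowest WT NKT17 library, token 7_10, was close to the highest WT NKT2 library.

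Among the JUN genes, Jun, the prototype JUN protein and the main target of JNK kinases (chr4:94715725-94718913, minus strand, without introns), was highest in NKT17 cells. There it was read at 343, 222 and 626 CPM in WT and 273, 743 and 261 CPM in SKG, against 96.7, 107 and 189 CPM in WT NKT2 and 126, 431 and 170 CPM in SKG NKT2. In NKT1 it was read at 111, 137 and 198 CPM in WT and 76.9, 390 and 92.3 CPM in SKG. The SKG library of token 7_11 was the highest of its group in all 3 subsets, and in each subset the other 2 SKG libraries lay below the highest WT library. A further annotated gene, BC042782, overlaps Jun, so reads where they overlap may have been counted for neither gene.

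Junb, a JUN protein of weaker activating power that TH17 cells require (chr8:87500811-87502617, minus strand, without introns), varied least between groups after Batf, with a 2.26-fold span of group means. WT NKT2 was its lowest group, at 700, 417 and 1010 CPM, and SKG NKT2 stood at 1040, 1280 and 1520 CPM, each above each WT library. The other groups averaged 1440 to 1600 CPM, with WT NKT1 spread from 828 to 2050 CPM and WT NKT17 from 693 to 2170 CPM.

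Jund, the JUN protein usually present without stimulation (chr8:73221638-73224515, plus strand, without introns, overlapped by Gm11175), had the widest fold range within a group among the members tested. WT NKT1 libraries held 201, 166 and 17.4 CPM, which rest on 1668, 870 and 98 counts. In WT NKT2 the values were 79.7, 15.7 and 22.6 CPM, from 390, 90 and 140 counts, and in SKG NKT2 92.7, 128 and 78.2 CPM. These 3 values of 15.7 to 22.6 CPM stood apart, since SKG libraries held 78.2 to 195 CPM in all subsets and WT NKT17 libraries 70.4 to 138 CPM. The transcript is 62.7% G and C, more than in 99.0% of genes tested with a GC value. The median deviation of 531 other genes of at least 59.6% GC stayed between -0.08 and 0.08 log2 units in all 18 libraries, while Jund in WT NKT1 replicate 3 deviated by -2.25 from its group mean. Cited2, a coactivator gene of 50.9% GC, deviated by -2.53 in that library, and the part of composition in the Jund values was not tested further.

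Batf (chr12:87027619-87050037, plus strand) had the tightest values. In NKT17 cells it was read at 89, 101 and 73.3 CPM in WT and 93.6, 67.9 and 84.1 CPM in SKG. In NKT1 cells the values were 45.6, 41.4 and 47.5 CPM in WT and 34.6, 51.4 and 53.7 CPM in SKG. In NKT2 cells they were 49.9, 39.1 and 30.1 CPM in WT and 48.2, 42.5 and 51.9 CPM in SKG. The 6 NKT17 libraries lay above the 12 others, and NKT1 and NKT2 covered the same range.

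Batf3, the paralogue that directs dendritic cells of the cross-presenting kind (chr1:192922293-192932822, plus strand), had 0 counts in all 18 libraries, which allows up to 0.337 to 0.683 CPM per library at 3 counts. Atf3, a stress-induced factor that can repress AP-1 targets (chr1:192994175-193007219, minus strand), did not pass the filter on low counts. It had 8, 2 and 36 counts in WT NKT17 and 5, 7 and 2 counts in SKG NKT17, and 18 counts in the SKG NKT1 library of token 7_11. The remaining 11 libraries held 0 to 2 counts each, so no fold change is given. Floors cover counting error only.

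**Figure D2:**
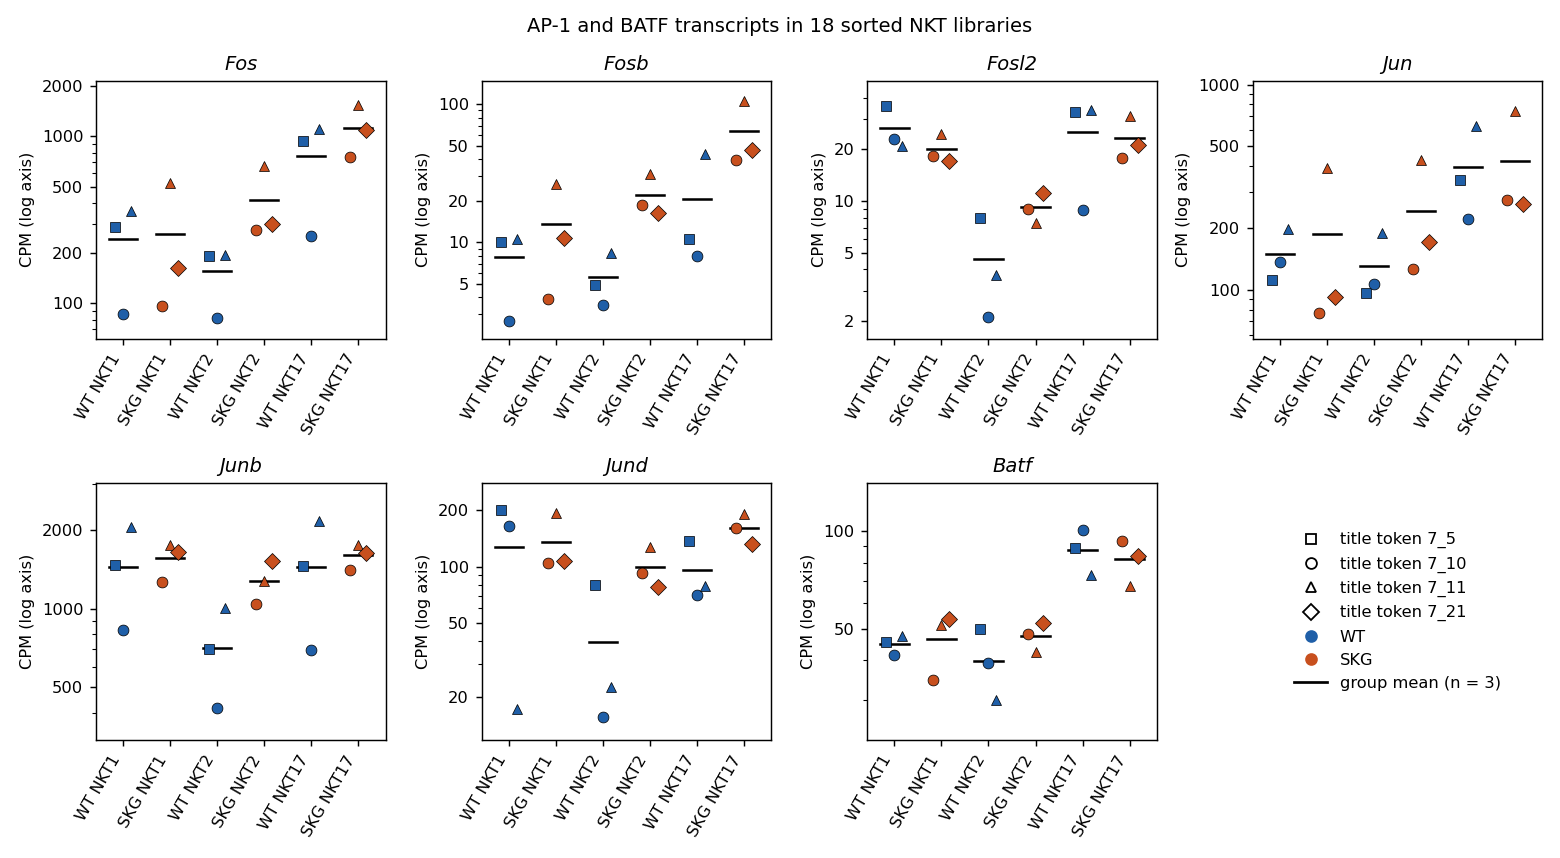
CPM of the 7 members tested in each of the 18 libraries on log axes, by group, with WT in blue and SKG in orange, a marker shape for each title token and bars at the group means. Batf is tight (WT NKT17 73.3 to 101 CPM), whereas Jund in WT NKT1 runs from 17.4 to 201 CPM.

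The first comparison asked whether the weakened TCR kinase changed the factors in each subset. None of the 7 members tested was called between SKG and WT in NKT1, NKT2 or NKT17, where 3.27%, 7.95% and 8.37% of all genes tested were called. At an unadjusted p under 0.05 edgeR had 0, 2 and 1 members, against 1543, 2322 and 2399 of the 11118 genes tested. DESeq2 called 0, 1 and 0 members, against 4.06%, 8.62% and 8.38% of the genes to which it gave an adjusted p. The DESeq2 call was Fosb in NKT2, with an adjusted p of 0.0922. In bulk libraries a change in the share of cells that express a gene cannot be told apart from a change of mRNA per cell.

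In NKT2 cells all 7 log2 fold changes were above 0, with a median of 1.03 against 0 over all genes tested. Fosb averaged 21.9 ± 8.03 CPM in SKG and 5.6 ± 2.53 CPM in WT (SD, n = 3 each), with a log2 difference of 1.95 ± 0.82 (SE, edgeR adjusted p = 0.186). Fos averaged 413 ± 218 and 156 ± 64.1 CPM, with a log2 difference of 1.41 ± 0.75 (adjusted p = 0.323). For Fosl2 the log2 fold change was 1.03 ± 0.48 (adjusted p = 0.222), for Junb 0.86 ± 0.42 (adjusted p = 0.277) and for Jund 1.35 ± 0.75 (adjusted p = 0.345). Jun, at 0.89 ± 0.71, and Batf, at 0.26 ± 0.19, had adjusted p-values of 0.543 and 0.482. The libraries of the genotypes did not overlap for Fos, Fosb and Junb, 3 of the 7 members, and for 30.1% of all genes tested. None of these shifts passed the adjusted threshold in the fit of all groups without a block for the title token. Fosb was called, at 1.97 (adjusted p = 0.00208), when only the 6 NKT2 libraries were fitted. Without WT NKT2 replicate 1, Fosl2 was called, at 1.66 (adjusted p = 0.0608).

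In NKT17 cells the median of the members was 0.15. Fosb averaged 20.6 ± 19.7 CPM in WT and 63.7 ± 36.1 CPM in SKG (SD, n = 3 each), with a log2 difference of 1.61 ± 0.74 (adjusted p = 0.228), and the other 6 members lay between -0.11 for Fosl2 and 0.76 for Jund. In NKT1 cells the members lay between -0.42 for Fosl2 and 0.78 for Fosb, with adjusted p-values of 0.747 to 0.99. Without WT NKT17 replicate 3, Fosb was called in NKT17, at 2.79 (adjusted p = 0.0406). For no member did the libraries separate by genotype in NKT1 or NKT17, where they did for 16.3% and 26.9% of all genes tested.

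WT and SKG shared title tokens 7_10 and 7_11, which gives 6 pairs of libraries of the same token and subset. Fos was higher in SKG in 6 of 6 pairs, by 1.11-fold to 3.42-fold, and Fosb in 6 of 6, by 1.46-fold to 5.29-fold. A rise in all 6 pairs was found for 5.57% of genes tested. Jun and Jund were higher in SKG in 5 pairs, Fosl2 and Junb in 4 and Batf in 3. Over all genes, libraries of the same token in WT and SKG did not deviate together, so these pairs are a description. Fos, Fosb, Jun and Junb, however, lay below the group mean in every token 7_10 library and above it in every token 7_11 library. For Fos these deviations were -1.33 to -0.46 and 0.42 to 1.38 log2 units. With the token as a block, Fos in SKG against WT NKT2 stood at 1.75 (edgeR adjusted p = 0.00141) and Fosb at 2.17 (0.0019). Over all genes the 2 same-token pairs of this comparison had r of -0.151 and 0.03, so the data did not pair these libraries. The block follows the members' own values, and the share of all genes called under it is not given. These blocked values are therefore a description only.

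**Figure D3:**
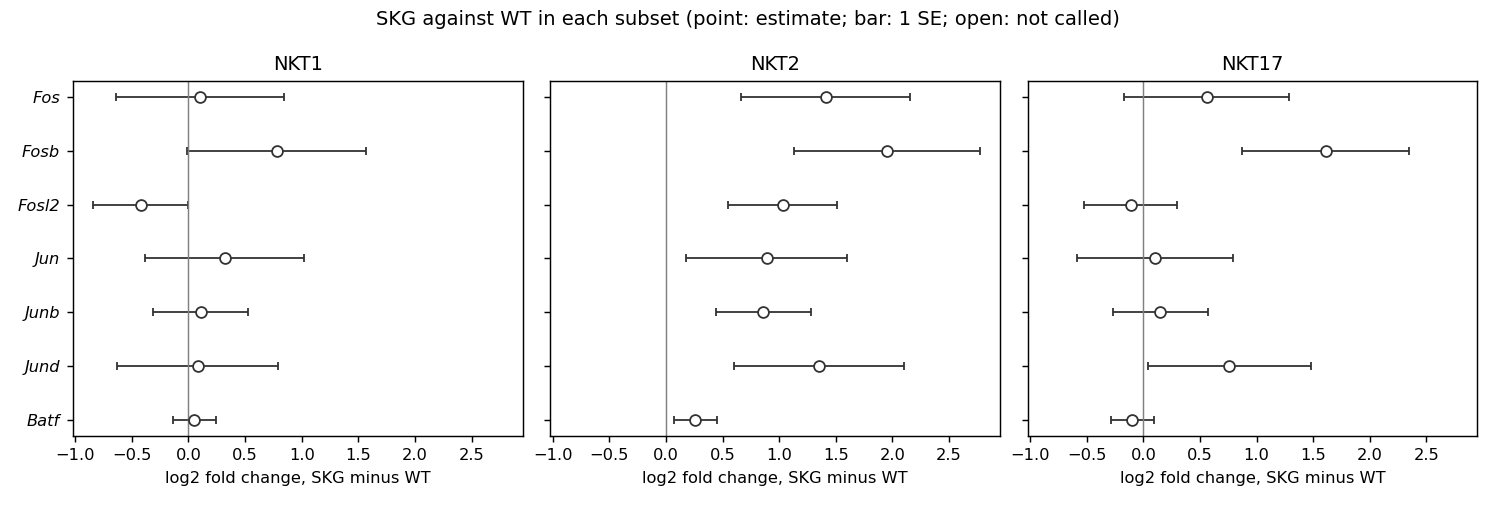
Log2 fold change of SKG over WT for the 7 members tested in each subset, with bars of 1 SE, where open points were not called. All points are open, and in NKT2 all 7 lie to the right of 0, from 0.26 for Batf to 1.95 for Fosb.

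Whether the SKG effect itself differed between subsets was tested with the interaction terms. No member was called for NKT2 against NKT1, NKT17 against NKT1 or NKT17 against NKT2, where 3.87%, 4.17% and 2.19% of genes tested were. edgeR had 1, 0 and 0 members at an unadjusted p under 0.05, against 1562, 1652 and 1189 of the 11118 genes tested. DESeq2 called 0, 0 and 0 members, against 5.06%, 5.46% and 3.19% of genes. The effect was more positive in NKT2 than in NKT1 for all 7 members, with a median difference of 1.18 log2 units, the smallest p being that of Fosl2 (1.45 ± 0.64, edgeR adjusted p = 0.304). It was less positive in NKT17 than in NKT2 for all 7, with a median difference of -0.71. These comparisons share the NKT2 libraries.

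The second set of comparisons asked how the factors differ between subsets of 1 genotype. NKT17 cells of WT mice held more Batf, Fosl2 and Fos mRNA than NKT2 cells, and these 3 of the 7 members were called, against 20.0% of all genes tested. Batf rose by 1.15 ± 0.19 log2 units (SE; edgeR adjusted p = 9.28e-05), from 39.7 ± 9.91 to 87.7 ± 13.8 CPM (SD, n = 3 each). Fosl2 rose by 2.48 ± 0.47 (adjusted p = 0.00047) and Fos by 2.29 ± 0.77 (adjusted p = 0.0494). The other members stood at 1.89 for Fosb (adjusted p = 0.122), 1.60 for Jun (0.14), 1.02 for Junb (0.109) and 1.29 for Jund (0.267), and the median over the 7 members was 1.6 against 0.01 over all genes. The libraries of the subsets did not overlap for 4 members, and for 37.2% of all genes.

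WT NKT17 and NKT2 libraries of the same token deviated together, and with the token as a block 6 members were called, against 20.9% of genes tested in that fit. Under the block Fos stood at 2.15 (adjusted p = 4.49e-05), Fosb at 1.7 (0.00274), Jun at 1.53 (0.00194) and Junb at 0.99 (0.00937), and DESeq2 without a block also called 6 members, against 18.7% of its genes. Batf and Fosl2 kept their calls in each of the 14 alternatives tried. The Fos call without the block was lost when WT NKT17 replicate 1 (adjusted p = 0.109), WT NKT17 replicate 3 (0.143), WT NKT2 replicate 2 (0.16) or WT NKT2 replicate 3 (just above the threshold) was left out. Without WT NKT17 replicate 2 the members called were 5, with Fosb at 2.28 (adjusted p = 0.0694) and Junb at 1.36 (adjusted p = 0.025) added.

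In SKG mice Batf and Fosl2 were again higher in NKT17 than in NKT2, 2 of 7 members against 18.8% of genes tested. Batf rose by 0.78 ± 0.19 (edgeR adjusted p = 0.00407) and Fosl2 by 1.33 ± 0.44 (adjusted p = 0.0346), while Fos, at 1.44, and Fosb, at 1.54, had adjusted p-values of 0.211 and 0.177. With the token as a block, Fos stood at 1.53 (edgeR adjusted p = 0.000595) and Fosb at 1.44 (0.00373), and both were called. Of the 3 same-token pairs of this comparison 1 had r over 0.1 over all genes. The share of all genes called under that block is not given. Leaving out SKG NKT2 replicate 1, SKG NKT2 replicate 2 or SKG NKT17 replicate 2 ended the Fosl2 call, with adjusted p-values just above the threshold for the first and of 0.126 and 0.138 for the others. The libraries did not overlap for 5 members, and for 40.3% of genes. Taken token by token, NKT17 was above NKT2 in all 6 sets of a genotype and token for each of the 7 members, a pattern that 17.2% of genes tested shared.

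NKT1 cells of WT mice had more Fosl2 and Junb than NKT2 cells, the 2 members called there, against 27.5% of genes tested. Fosl2 rose by 2.55 ± 0.47 (edgeR adjusted p = 0.000254) and Junb by 1.03 ± 0.42 (adjusted p = 0.0827), with overlapping libraries for Junb. The Junb call was lost without WT NKT1 replicate 1 (adjusted p = 0.147), WT NKT1 replicate 3 (0.275), WT NKT2 replicate 1 (0.17) or WT NKT2 replicate 2 (0.253). Jund, at 1.72 ± 0.75 (adjusted p = 0.103), was called when WT NKT1 replicate 3 was left out, at 2.23 (0.0108), or WT NKT2 replicate 1, at 2.73 (0.0275). In SKG mice 1 member was called between these subsets, against 18.7% of genes, and it was Fosl2, at 1.10 ± 0.44 (adjusted p = 0.0861). That call was lost when any 1 of the 6 SKG NKT1 and NKT2 libraries was left out, with adjusted p-values of 0.112 to 0.232.

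Batf was lower in NKT1 than in NKT17 cells in both genotypes, by -0.97 ± 0.19 log2 units in WT (edgeR adjusted p = 0.000407) and -0.81 ± 0.19 in SKG (adjusted p = 0.00242). In WT it was the 1 member called, against 24.7% of genes tested. In SKG 3 members were called, against 22.8% of genes, and the other two were Fosb, at -2.23 ± 0.77 (adjusted p = 0.0467), and Fos, at -2.11 ± 0.76 (adjusted p = 0.0595). In WT the same differences were -1.40 for Fosb (adjusted p = 0.222) and -1.65 ± 0.75 for Fos (adjusted p = 0.133), which was called without WT NKT17 replicate 2, at -2.09 (adjusted p = 0.0597). The Fosb call in SKG was lost without SKG NKT1 replicate 1 (adjusted p = 0.144), SKG NKT1 replicate 3 (0.137) or SKG NKT17 replicate 2 (0.159). The Fos call was lost without any of these (0.182, 0.173 and 0.149) or without SKG NKT17 replicate 3 (0.106). Batf kept its call in both genotypes in each of 14 alternatives. The WT and SKG comparisons of subsets share no library, but comparisons within a genotype share the libraries of 1 subset.

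**Figure D4:**
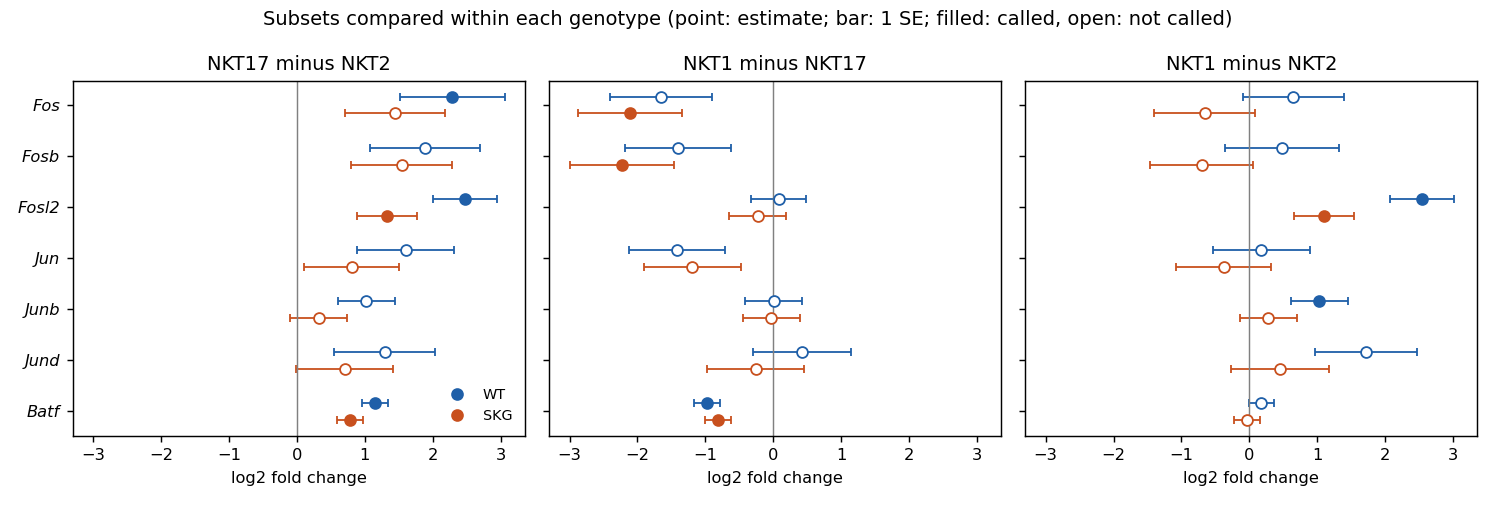
Log2 differences between subsets for the 7 members in WT (blue) and SKG (orange), with bars of 1 SE, filled points called and open points not called. Fosl2 stands above NKT2 in both other subsets (2.55 and 2.48 in WT), and Batf is raised in NKT17 in both genotypes (1.15 and 0.78 over NKT2).

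The members also varied between libraries of the same group, and part of the family did so together. After the group means were removed, the deviations of Fos and Fosb over the 18 libraries had a Pearson r of 0.874, those of Fos and Junb 0.805, of Fosb and Jun 0.786 and of Fos and Jun 0.759. Batf stood apart, with r of -0.0326 to Fos, -0.123 to Fosb and -0.311 to Jun, and Jund had r of 0.103 or less with Fos, Fosb, Jun and Junb but 0.535 with Fosl2. These values describe 18 libraries that share tokens and depth. In the upstream sequences given above, TGACG stood in the window of Batf as well as in those of Fos, Fosb and Junb.

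Hspa1a, a heat shock gene that cell handling can induce, moved with these deviations in SKG and not in WT. The SKG libraries of token 7_11, highest in Fos, Fosb and Jun, held 516, 342 and 590 CPM of Hspa1a in NKT1, NKT2 and NKT17, against 3.69 to 75.8 CPM in the other SKG libraries. In WT the libraries of token 7_10, lowest in Fos, held the most Hspa1a, at 217, 213 and 299 CPM. The part of cell handling in the Fos and Jun levels was not tested. Summed over 27 immediate-early and handling-response genes other than the members, libraries ranged from 5200 to 9440 CPM.

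**Figure D5:**
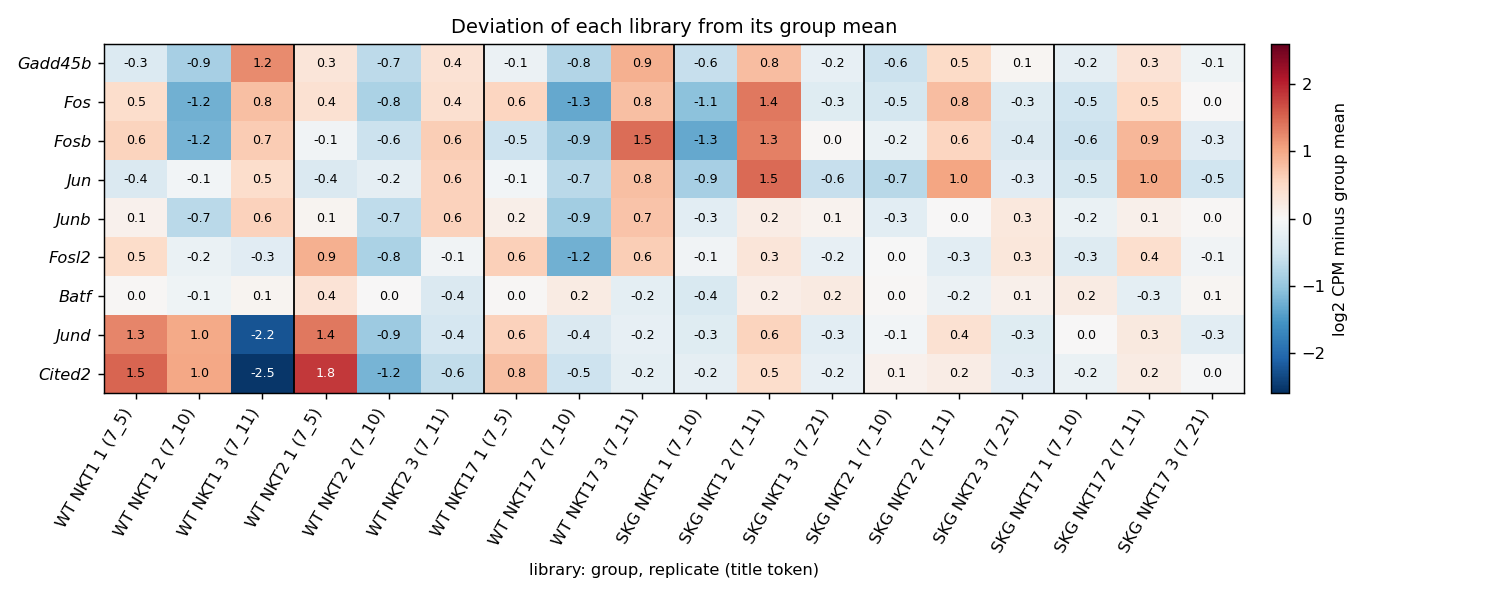
Deviation of each of the 18 libraries (columns, by group, replicate and title token) from its group mean in log2 CPM, printed and coloured (red above, blue below) for the 7 members tested, with Gadd45b and Cited2, the genes most like Fos and Jund. Fos, Fosb and Jun tend to share colours (r of 0.759 to 0.874), while Jund reaches -2.25 in WT NKT1 replicate 3, where they lie above their means.

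The genes whose log2 CPM was most like that of a member over all 18 libraries, by Pearson r, were led by Gadd45b for Fos (0.94), Fosb (0.901) and Jun (0.842). Gadd45b is a stress-response gene that activates p38 and JNK signalling upstream of AP-1. The next were Klf4 (0.863) and Olfr1033 (0.854) for Fos, Malat1 (0.891) and Tmem181c-ps (0.874) for Fosb, and Rev3l (0.824) and Chd9 (0.78) for Jun. Junb was most like 5031425E22Rik (0.864), Klf6 (0.843) and Cep250 (0.84), and Fosl2 like Kbtbd11 (0.91), Ell2 (0.894) and Gna13 (0.892). Jund was most like Cited2 (0.974), Rnf220 (0.963) and Ank (0.959), and Batf like Eif4e3 (0.919), B4galt4 (0.914) and Gpr44 (0.904), the last a prostaglandin D2 receptor gene. The points share libraries and group differences, and each list holds the highest of 11118 values.

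Of the partners that bind DNA with BATF, Irf8 was lower in SKG NKT17 and SKG NKT1, and Irf4 differed by subset. Irf8 fell from 26 ± 5.2 to 3.05 ± 0.681 CPM in NKT17 (SD, n = 3 each), by 3.09 ± 0.33 log2 units (edgeR adjusted p = 1.2e-06). In NKT1 it stood at 73 ± 2.79 CPM in WT and 31.8 ± 5.72 CPM in SKG, with a log2 difference of -1.20 ± 0.27 (adjusted p = 0.0165, or 0.113 without SKG NKT1 replicate 2). In NKT2 Irf8 was not called between genotypes, at 10.4 ± 2.39 CPM in WT and 7.12 ± 4.26 CPM in SKG. Irf4, which NKT2 cells had at 13.6 CPM in WT and 30.8 CPM in SKG against 2.73 and 2.79 CPM in NKT1, was not called between genotypes in any subset.

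The other bZIP genes measured were 33, of which 25 were tested. Between SKG and WT 0 were higher and 1 lower in NKT1, 1 higher and 2 lower in NKT2, and 2 higher and 1 lower in NKT17, where 3.27%, 7.95% and 8.37% of all genes were called in either direction, with medians of 0, -0.03 and 0.02. Crem, whose short forms repress CRE-driven genes, was lower in SKG in all 3 subsets. Its means were 89 and 34.4 CPM in WT and SKG NKT1, 90.1 and 32.6 CPM in NKT2, and 68.1 and 37.7 CPM in NKT17, with log2 fold changes of -1.37 ± 0.24 (edgeR adjusted p = 0.00243), -1.46 ± 0.25 (0.000407) and -0.85 ± 0.24 (0.0302). The Crem call in NKT17 was lost without WT NKT17 replicate 1 (adjusted p = 0.166) or SKG NKT17 replicate 1 (0.123). Maf, a factor of IL-17 producing T cells, was higher in NKT17 than in NKT2 in both genotypes, by 1.52 and 1.87. Nfil3, a bZIP repressor, was at 1.6 and 0.938 CPM in WT and SKG NKT2, against 24.4 to 78.9 CPM in the other groups.

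Of 24 MAP kinases, their upstream kinases and the factors they target, all of them tested, 1 was called between genotypes, in NKT2, where 7.95% of all genes were. Braf, a kinase at the head of the ERK cascade, averaged 8.72 ± 1.96 CPM in WT NKT2 and 19.2 ± 1.77 CPM in SKG NKT2 (SD, n = 3 each), with a log2 difference of 1.14 ± 0.30 (edgeR adjusted p = 0.0162). The medians of the 24 genes were -0.04, 0.1 and -0.01 in NKT1, NKT2 and NKT17, against -0.01, 0 and 0 over all genes. Between WT subsets, Elk3, a partner of SRF at immediate-early promoters, was higher in NKT17 than in NKT2 by 1.27 ± 0.15 (adjusted p = 1.42e-06), a call that held in 14 of 14 alternatives.

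Immediate-early genes outside the family gave 0 higher and 0 lower of 27 between SKG and WT in NKT1, 5 higher and 1 lower in NKT2, and 2 higher and 1 lower in NKT17, with medians of 0.05, 0.55 and 0.1. Over all genes tested, 1.46% were higher and 1.82% lower in NKT1, 3.9% and 4.05% in NKT2, and 3.83% and 4.54% in NKT17. In SKG NKT2 Gadd45b rose by 1.77 ± 0.57 (edgeR adjusted p = 0.0695), a call lost without SKG NKT2 replicate 2 or 3 or any WT NKT2 library (adjusted p of 0.121 to 0.242). Klf4 rose by 1.92 ± 0.66 (adjusted p = 0.0811), a call lost without WT NKT2 replicate 2 or 3 or any SKG NKT2 library (adjusted p of 0.108 to 0.251). Ier3, at 3.53 ± 2.99 CPM in WT and 0.774 ± 0.485 CPM in SKG, fell by 2.12 ± 0.66 (adjusted p = 0.0514), a call lost without SKG NKT2 replicate 1 (0.185), SKG NKT2 replicate 2 (0.114) or WT NKT2 replicate 3 (0.418, at -1.14).

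Of 9 genes with well-known AP-1 or BATF-IRF elements, 7 were tested, and between SKG and WT 1 was higher in NKT1, 1 higher and 1 lower in NKT2, and 1 higher and 2 lower in NKT17, beside the same shares of all genes. Il4 rose in SKG NKT1 by 1.65 ± 0.32 (edgeR adjusted p = 0.00614), a call that held in 14 of 14 alternatives. In SKG NKT17 Il4 fell by 1.06 ± 0.32 (adjusted p = 0.0494), a call lost without SKG NKT17 replicate 2 (0.136), SKG NKT17 replicate 3 (0.161) or WT NKT17 replicate 2 (0.144). Il17a was read at 6.09 to 83.3 CPM in WT NKT17 and 6.94 to 10.5 CPM in SKG NKT17, so the libraries overlapped. Its difference of -2.27 ± 0.73 (adjusted p = 0.0939) was not called in 10 of 14 alternatives, DESeq2 among them (0.313), and was -1.22 (0.335) without WT NKT17 replicate 3. Prdm1, the gene of a repressor that BATF with IRF4 can induce, rose in SKG NKT17 by 1.79 ± 0.53 (adjusted p = 0.0362), a call lost without SKG NKT17 replicate 1 (0.144), WT NKT17 replicate 1 (0.115) or WT NKT17 replicate 3 (0.145). In NKT2 Prdm1 was at 0.494 ± 0.579 CPM in WT and 2.46 ± 1.7 CPM in SKG, and its difference of 2.21 ± 0.73 (adjusted p = 0.0675) was not called in 6 of 13 alternatives, 4 of which leave out 1 library (adjusted p of 0.124 to 0.358). The gene lower in SKG NKT2 was Il21, at 4.67 ± 1.68 CPM in WT and 0.268 ± 0.464 CPM in SKG. Its difference of -3.86 ± 1.1 (edgeR adjusted p = 0.0405) was not called in 5 of 14 alternatives, DESeq2 among them (0.108).

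Markers of other cells were checked in the same libraries. The 5 B cell markers measured summed to 24.8 to 40.7 CPM in SKG NKT17, mostly from Cd79b, against 7.82 to 11.1 CPM in WT NKT17 and at most 5.95 CPM elsewhere, while Pax5 was at 0 in all libraries. The 7 markers of double-positive thymocytes summed to 14.3 to 47.5 CPM in SKG NKT17 and 5.27 to 12.5 CPM in WT NKT17, mostly from Cd8b1. The 6 myeloid markers measured summed to 172 to 523 CPM in NKT1, nearly all from Fcer1g, and to at most 14.9 CPM in NKT2 and NKT17. The part of such cells in the differences of Irf8 and the other genes was not tested.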

How the data were processed

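RNA of the sorted cells was made into full-length cDNA from poly-A mRNA and sequenced as short single-end reads. The deposited values are whole-number read counts by gene symbol, for which the authors used TopHat 1.4.1 and htseq-count in union mode after removal of tRNA, rRNA, adapter, spike-in and low-complexity reads. The study's methods name build mm9, while the submitters' processing notes list mm10 and hg19, with Bowtie 1.0.0 and HTSeq 0.7.1. Annotation and strand setting are not given in the sources used here. In union mode a read that overlaps 2 genes is counted for neither, so overlapping genes may have lost reads. Reads without molecular identifiers can hold PCR copies. A further 2 columns that match no listed sample were left out.

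Counts were filtered with filterByExpr, scaled by TMM and fitted in edgeR 4.0.16 (R 4.3.3) with a robust quasi-likelihood model of the 6 groups (12 residual degrees of freedom, biological coefficient of variation 21.1%). Tests were two-sided, with adjustment over the 11118 genes. The thresholds are those of the study. All 9 members are named. Of each other list, the called genes of largest change, at most 3 a comparison, could be named, and for each member tested the 3 genes of highest correlation (log2 CPM, prior count 2). The members and lists were chosen with earlier results of these data known. The pipeline was tested on simulated counts. Coordinates and lengths are from GENCODE M1 on NCBIM37, matched by symbol for 9 of 9 members, and upstream sequences from RefSeq on GRCm38.p6, also for 9 of 9. Libraries of WT NKT17 and WT NKT2 with the same title token deviated together in 3 of 3 pairs (r of 0.219 to 0.351), which pairs them, so the blocked fit is given there. Alternatives were RLE and upper-quartile scaling, no filter, DESeq2 1.42.0, a fit of the compared libraries alone, other thresholds, the token as a block, and each library left out.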

Additional observations from a re-analysis of the deposited data

Results flagged for a closer look

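No AP-1 or BATF factor was called for a difference in its SKG effect between subsets in the fit without a block, but 5 genes of the other lists were. The calls are by the interaction terms of edgeR with adjusted p under 0.1 and a fold of at least 1.5. With the token as a block, Fos (adjusted p = 0.0517) and Fosl2 (0.0975) were called for NKT2 against NKT1. Over all genes, same-token libraries of WT and SKG did not deviate together, so that block is an alternative only. Irf8, the partner of BATF, fell further in SKG NKT17 than in SKG NKT1, by -1.89 ± 0.42 log2 units (adjusted p = 0.0146), and than in SKG NKT2, by -2.58 ± 0.45 (adjusted p = 0.00244). Il4, a cytokine gene with AP-1 elements, had an SKG effect lower in NKT17 than in NKT1 by -2.71 ± 0.45 (adjusted p = 0.00222) and lower in NKT2 than in NKT1 by -2.25 ± 0.43 (adjusted p = 0.00542). The effect on Nfkbia, the inhibitor of NF-κB, was higher in NKT2 than in NKT1 by 0.96 ± 0.22 (adjusted p = 0.0141). These calls held in 20 of 20 alternatives. For Ier3 the effect in NKT2 was below that in NKT1 by -3.36 ± 0.81 (adjusted p = 0.0239), a call lost without WT NKT2 replicate 3. For Braf it was above by 1.36 ± 0.41 (adjusted p = 0.0803), a call lost in 10 of 20 alternatives. The alternatives for genes other than the members were added after the data had been seen. The comparisons with NKT1 share the NKT1 libraries.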

How the results depend on the processing

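Over all alternatives, 1302 log2 differences of members were recomputed, of which 1172 kept their direction and their side of the threshold, 35 lost a call, 45 gained one and 50 changed sign, none of the last being called. Upper-quartile scaling moved the median of all genes by -0.10 log2 units between WT NKT1 and NKT2. An adjusted p under 0.05 left 1 member between WT NKT1 and NKT2 and 0 between SKG NKT1 and NKT2, as did upper-quartile scaling and no filter (1 and 0 each), and 278 and 155 genes for the SKG effect in NKT17 against NKT1 and NKT2. Without a fold minimum 1398 genes were called between SKG and WT NKT17. DESeq2 called 1 member between SKG and WT NKT2, 2 between WT NKT1 and NKT17 and 6 between WT NKT17 and NKT2. With only the compared libraries fitted, 207 genes were called between SKG and WT NKT1, and 1 member each between SKG and WT NKT2 (Fosb), SKG and WT NKT17 (Jund), WT NKT1 and NKT2 and SKG NKT1 and NKT17, 2 between WT NKT1 and NKT17 and 4 between SKG NKT17 and NKT2. The cause of these changes was not tested.

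With the title token as a replicate block, 5 members were called between SKG and WT NKT2, 2 between SKG and WT NKT17, 4 between WT NKT1 and NKT17, 6 between WT NKT17 and NKT2, 3 between SKG NKT1 and NKT2, 5 between SKG NKT17 and NKT2 and 2 for the SKG effect in NKT2 against NKT1. Without the block 7.95%, 8.37%, 24.7%, 20.0%, 18.7%, 18.8% and 3.87% of genes tested were called there. Of the blocked shares only that of WT NKT17 against NKT2 is given, at 20.9%. The other blocked counts therefore cannot be set against all genes of the same fit, and are not read as a result about the members. In SKG against WT NKT2 the blocked values were 1.75 for Fos (edgeR adjusted p = 0.00141) and 2.17 for Fosb (0.0019). Fosl2 stood at 1.49 (0.0276), Junb at 0.93 (0.0454) and Jund at 2.21 (0.0986). In the other comparisons of subsets 1 or 2 of 3 same-token pairs had r over 0.1, and not all 3, so the block was kept as an alternative there. For SKG NKT17 and NKT2 all 3 pairs had an r above 0, from 0.0917 to 0.214. WT and SKG have 2 tokens in common, and 0 of 18 such pairs had r over 0.1, against 12 of 18 within a genotype. Under the block Fosl2 in SKG against WT NKT17 turned to 0.28 and the effect on Jun in NKT17 against NKT1 to 0.05. Junb in WT NKT1 against NKT17, at 0.01, turned to -0.04 with upper-quartile scaling and to values that print as 0 with RLE and DESeq2.

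With 1 library left out, members called ranged from 0 to 1 for SKG against WT in NKT2 and in NKT17, 1 to 2 for WT NKT1 against NKT2 and against NKT17, 2 to 5 for WT NKT17 against NKT2, 0 to 0 for SKG NKT1 against NKT2, 1 to 4 for SKG NKT1 against NKT17 and 1 to 2 for SKG NKT17 against NKT2, and genes called from 157 to 256 and 296 to 537 for the SKG effect in NKT17 against NKT2 and NKT1. Log2 values that changed sign, none of them called, ran for SKG against WT in NKT1 from -0.9 to 0.51 for Fos, -0.08 to 1.24 for Fosb, -0.79 to 0.71 for Jun, -0.15 to 0.45 for Junb, -0.43 to 0.57 for Jund and -0.06 to 0.25 for Batf, and in NKT17 from -0.52 to 0.18 for Fosl2, -0.58 to 0.6 for Jun, -0.19 to 0.58 for Junb and -0.21 to 0.02 for Batf. In WT NKT1 against NKT17 they ran from -0.35 to 0.35 for Fosl2, -0.36 to 0.42 for Junb and -0.06 to 0.95 for Jund, and against NKT2 from -0.09 to 0.53 for Jun and 0 to 0.35 for Batf. In SKG NKT1 against NKT2 they ran from -1.52 to 0.32 for Jun and -0.16 to 0.14 for Batf, and against NKT17 from -0.39 to 0.03 for Fosl2 and -0.12 to 0.11 for Junb. For the SKG effect they ran from -0.13 to 0.57 for Fosl2, -0.33 to 0.45 for Junb and -0.92 to 0.88 for Jun in NKT17 against NKT1, -0.16 to 1.7 for Jun in NKT2 against NKT1 and -0.92 to 0.84 for Fosb in NKT17 against NKT2.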
